A study of Brassica napus with 18 samples.

Results

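The comparison described here set 3 libraries of the bnagrp3 mutant of Brassica napus (oilseed rape) against 3 libraries of wild type (WT), all 6 taken after 8 h in 200 mM NaCl, out of 18 libraries in the series. The members are the 6 libraries whose labels give these genotypes and this treatment, a rule that uses no measured value. Plants of both genotypes were grown for 3 weeks in Hoagland's nutrient solution, and poly(A) RNA was taken from the parts above ground, which the labels also call leaf. The other 12 libraries are WT and bnagrp3, 3 each, in mock and after 4 h in 200 mM NaCl. The column heads of the mock libraries read 0 h, and the labels do not say whether any mock plants were sampled at 8 h. The labels do not say which of the GRP3 gene copies carry the mutation, nor whether the mutant is 1 line or several.

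GRP3 is known from Arabidopsis as a small secreted glycine-rich protein that binds the outer domain of the wall-associated kinase WAK1. Wall-associated kinases span the plasma membrane, bind pectin in the cell wall and carry a kinase domain inside the cell. Brassica napus joins the A genome of Brassica rapa and the C genome of Brassica oleracea, so most Arabidopsis genes have several copies, some of them pairs of equivalent A and C copies called homeologs. Gene roles given below are those of the matched Arabidopsis protein unless stated. Gene models without a place in the reference annotation carry only a number in the table and are written here as model with that number.

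Expression was measured as TPM, a transcript abundance that adjusts for gene length and library size and keeps no read depth, so the precision set by depth is unknown. Of 108207 genes, 57923 reached 1 TPM in at least 3 of the 18 libraries and were tested with limma on log2(TPM + 1), a scale that understates changes of low genes. A gene is called where the p-value adjusted over all genes tested (Benjamini-Hochberg) was under 0.05, and a difference is bnagrp3 minus WT in log2 units. Nothing in the labels says whether replicates came from separate plants or cultures, and p-values therefore reflect only the scatter of these libraries, part or all of which may be technical. The 3 bnagrp3 libraries correlated with each other at 0.954 to 0.957 across genes and the 3 WT libraries at 0.918 to 0.944. WT replicate 2 stood farthest from bnagrp3, with correlations of 0.821 to 0.826, against 0.865 to 0.868 for WT replicate 1 and 0.881 to 0.885 for WT replicate 3. Results that change without WT replicate 2, or without another library, are given both ways.

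At 8 h of NaCl, 6626 genes were higher in bnagrp3 than in WT and 6946 were lower. The 13572 called genes were 23.4% of those tested, with 11.4% higher and 12% lower. For 13339 of them (23% of the genes tested) the libraries of the genotypes did not overlap. The median size of the difference was 0.84 among genes called higher and 0.87 among genes called lower, and 2637 higher and 2952 lower genes differed by at least 1 log2 unit, 9.65% of the genes tested. Leaving out WT replicate 2 left 9503 calls, the lowest number among the 6 libraries left out in turn. In RNA from a whole organ, fewer cells of a type and less RNA per cell cannot be told apart, here and in every result below.

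GRP3 transcripts were lower in bnagrp3 but far from absent. The 14 genes matched to GRP3, all but 1 of them under the name of its short isoform, summed to 9078, 8682 and 9382 TPM in WT and to 4725, 5122 and 4850 TPM in bnagrp3 at 8 h, without overlap. In mock the sums were 3566 to 3837 TPM in WT and 1763 to 2329 TPM in bnagrp3. Of the 14 genes, 11 passed the filter, 5 were lower and 1 was higher (45.45% and 9.09%, beside 12% and 11.4% of all genes tested). The labels name GRP3 as the mutated gene, so these levels check the labels and describe the mutant. A second protein database names some of the matched genes otherwise. Model 65893, Bnascaffold0025G0035900ZS and BnaC07G0084200ZS read dormancy-associated protein 2-like there. BnaC07G0083900ZS and BnaC07G0084100ZS read cold and drought-regulated protein CORA-like. The sums and counts above therefore include genes whose names disagree.

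The largest fall among the GRP3 genes was in model 65893, at 2241, 1429 and 2799 TPM in WT and 1.19, 4.39 and 4.51 TPM in bnagrp3. The difference was −9.01 (SE 0.38, 95% interval −9.85 to −8.18, limma adjusted p 4.35e-10), and this model was low in bnagrp3 in mock too, at a mean of 0.167 TPM against 460 TPM. BnaA07G0050000ZS had 107, 137 and 120 TPM in WT and 6.24, 9.43 and 11.2 TPM in bnagrp3 (difference −3.64, SE 0.23, adjusted p 2.87e-08). BnaC07G0084100ZS had 30.04, 22.03 and 39.55 TPM in WT and 5.42, 5.95 and 5.8 TPM in bnagrp3 (difference −2.19, adjusted p 1.74e-07). These 3 genes held their calls with any library left out.

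The most abundant GRP3 genes differed far less. BnaC03G0480300ZS fell from 4182 ± 207 to 2952 ± 100.3 TPM (SD, n = 3; difference −0.50, limma adjusted p 0.0181) and BnaA03G0387800ZS from 2436 ± 177 to 1679 ± 83.8 TPM (difference −0.54, adjusted p 0.0154). Without WT replicate 2 the adjusted p became 0.0671 and 0.0662, and without bnagrp3 replicate 1 it became 0.056 and 0.0534. The call of BnaC03G0480300ZS was also lost without bnagrp3 replicate 3, at an adjusted p of 0.0524. One GRP3 gene moved the other way. Bnascaffold0025G0035900ZS, on an unplaced scaffold, had 5.5, 3.58 and 4.07 TPM in WT and 122, 160.25 and 148 TPM in bnagrp3 (difference 4.75, SE 0.37, 95% interval 3.96 to 5.55, adjusted p 3e-07). In mock its means were 2.24 TPM in WT and 6.96 TPM in bnagrp3. The 5 tested genes without a call include BnaA03G0387900ZS, with a difference of 0.13 (95% interval −0.37 to 0.62), and BnaC07G0084200ZS, with −0.19 (−1.15 to 0.76). How reads shared by near-identical copies were divided is not given in the sources used here, so the split among these genes is less certain than their sum.

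**Figure D1:**
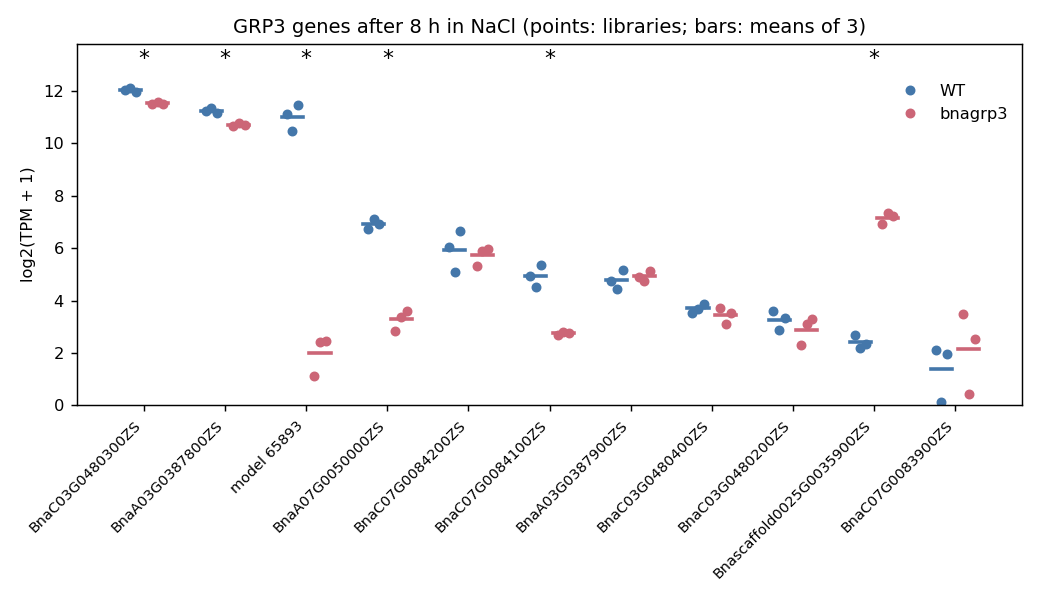
Log2(TPM + 1) of the 11 tested GRP3 genes in each of the 3 WT and 3 bnagrp3 libraries at 8 h of NaCl, 1 point per library, with an asterisk at genes called in the fit over all genes. Model 65893 dropped from over 1400 TPM to under 5 TPM, the scaffold gene lay above 120 TPM in bnagrp3 and under 6 TPM in WT, and the most abundant copies lay close together.

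Wall-associated kinase genes moved in both directions. Of 97 genes matched to this family 34 passed the filter, and 6 were higher and 9 lower, with a median difference of −0.04 that became 0.15 under a filter of 5 TPM. These were 17.65% higher and 26.5% lower, beside 11.4% and 12% among all genes tested, where the median was 0. In mock the family also had 6 higher and 9 lower. Model 48612, matched to WAK1, had 8.62, 17.6 and 13.4 TPM in WT and 0.83, 0.78 and 0.98 TPM in bnagrp3 (difference −2.88, SE 0.19, limma adjusted p 5.62e-08), and it was listed at 0 in every mock library. BnaC08G0265700ZS, a WAK5 gene, fell from 7.45 to 0.133 TPM (difference −2.89). The kinase-like genes BnaC08G0480100ZS (WAKL5) and BnaC09G0620100ZS (WAKL20) were higher in bnagrp3, with means of 24.6 against 10.7 TPM and 17.95 against 9.30 TPM. Summed over all genes that share the WAK1 entry of the Swiss-Prot database, the level was 9.81, 17.9 and 15.5 TPM in WT and 3.22, 2.66 and 3.03 TPM in bnagrp3 (difference −1.92, SE 0.17, adjusted p 3.41e-06). In mock the same sum was the higher one in bnagrp3, at 3.10 against 1.09 TPM, and the change of the genotype difference from mock to 8 h was called (−2.89, adjusted p 1.18e-05). Such a change from mock was called for 2.65% of all entry sums tested, 1.68% upward and 0.973% downward.

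The 12 largest falls among well-expressed genes left means under 7 TPM in bnagrp3 at 8 h, and in mock the bnagrp3 means of these genes were under 8 TPM as well. BnaC02G0286800ZS, a bifunctional nuclease of the BBD1 type, had 266, 261 and 267 TPM in WT and 0, 0.07 and 0 TPM in bnagrp3 (difference −8.02, SE 0.09, limma adjusted p 4.12e-16). A type 2 metallothionein gene, BnaC02G0005000ZS, had 329, 408 and 219 TPM in WT and was listed at 0 in all 3 bnagrp3 libraries, and it was at 0 in bnagrp3 in mock as well. The metallothionein genes together summed to 4430, 3722 and 4700 TPM in WT and to 5926, 5915 and 6209 TPM in bnagrp3. Of 14, 4 were higher and 4 lower (28.6% each), beside 11.4% and 12% of all genes tested. Model 53324, matched to ECS1, a cell wall protein, had 148, 278 and 119 TPM in WT and was listed at 0 in bnagrp3, while in mock its WT mean was 1721 TPM. Others of this set were the thylakoid-curvature gene BnaA04G0295500ZS (CURT1B, 936 to 6.79 TPM) and the antenna protein gene BnaC02G0001800ZS (LHCB4.1, 189 to 0.927 TPM).

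For 3 of these genes the WT level was low in mock. BnaC03G0000500ZS, matched to the late-embryogenesis protein LEA14, had 99.9, 123 and 88.7 TPM in WT at 8 h and was listed at 0 in bnagrp3, against mock means of 0.08 and 0 TPM. BnaA04G0243400ZS, like a non-specific lipid-transfer protein 1, had 122, 145 and 72.2 TPM in WT and was listed at 0 in bnagrp3, against 1.41 and 0 TPM in mock. BnaA06G0034600ZS, a carboxylesterase gene (CXE5), fell from a mean of 134 to 0.58 TPM (difference −6.40), against 2.53 and 0.02 TPM in mock.

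GLP1 of the germin-like proteins, which are secreted to the cell wall, showed a copy of each kind. BnaC02G0102600ZS fell from a mean of 186 to 0.22 TPM (difference −7.29), and BnaA02G0086600ZS rose from 8.45 to 92.1 TPM (difference 4.06), with 9.13, 0 and 16.2 TPM in the WT libraries.

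The largest rises included genes near 0 in WT. BnaC02G0350700ZS, a methionine aminopeptidase gene (MAP2B), was listed at 0 in all 3 WT libraries and had 30.2, 79.2 and 70.9 TPM in bnagrp3. BnaA10G0109000ZS, matched to the chloroplast-division protein MCD1, had a mean of 0.173 TPM in WT and 57.25 ± 3.27 TPM in bnagrp3 (SD, n = 3; difference 5.65, SE 0.12). BnaC09G0596400ZS, a probable pectin methylesterase gene (PME47), had 0.67, 0.78 and 0.84 TPM in WT and 45.7, 43.6 and 34.4 TPM in bnagrp3 (difference 4.57, limma adjusted p 1.63e-06). Pectin methylesterases remove methyl groups from the wall polymer that wall-associated kinases bind. Weaker members of the set rested on uneven WT libraries: model 29682, matched to the histone acetyltransferase HAC1, was at 0, 0 and 41.4 TPM in WT (difference 4.22, adjusted p 0.0349) and lost its call with 5 of the 6 libraries left out. BnaA10G0288600ZS, a ribosomal protein S28 gene, lost its call with each library left out, at adjusted p values of 0.0556 to 0.071.

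Since many genes have near-identical copies, TPM was also summed over all genes that share a Swiss-Prot entry, a step chosen after values were seen. Of 13876 such sums tested, 1383 were higher in bnagrp3 and 1399 lower at 8 h, 20% in all, with 9.97% higher and 10.1% lower. Without WT replicate 2 the calls numbered 1803. Of the 10300 called genes whose entry has 2 or more genes, the sum was called the same way for 3733 (36.2%), the other way for 409 and not at all for 6158. A call on a single copy therefore often went with a sum that was not called. Phenylalanine ammonia-lyase 4, an entry enzyme of phenylpropanoid synthesis, is an example. Its copy BnaC05G0498400ZS fell from 28.3 to 5.91 TPM while BnaA05G0449800ZS rose from 5.75 to 27.0 TPM (adjusted p 0.0138, and 0.0754 without WT replicate 2), and the sum was 34.03 TPM in WT and 33.6 TPM in bnagrp3 (difference −0.02, 95% interval −0.26 to 0.22).

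**Figure D2:**
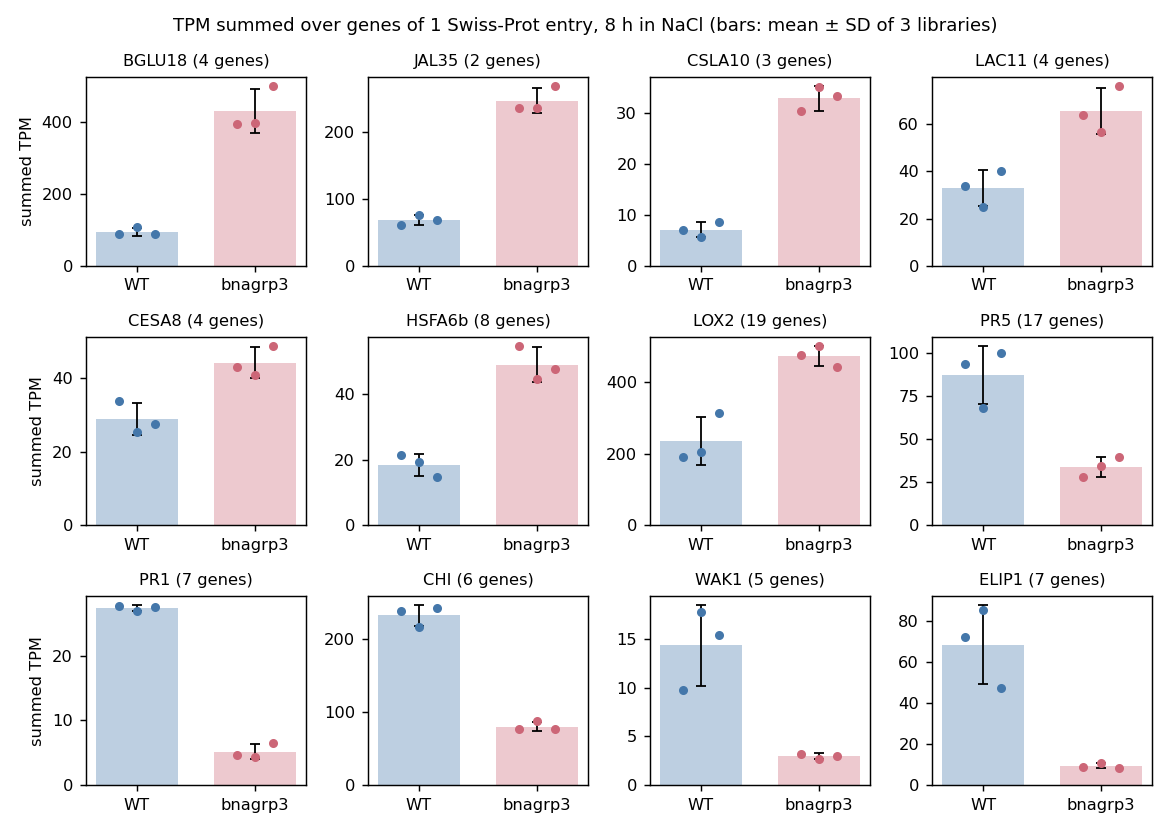
TPM summed over all genes of 12 Swiss-Prot entries in WT and bnagrp3 at 8 h of NaCl, with 1 point per library and bars at the mean with the SD of 3 libraries. BGLU18, JAL35, CSLA10, LAC11, CESA8, HSFA6b and LOX2 lay higher in bnagrp3, and PR5, PR1, CHI, WAK1 and ELIP1 lay lower.

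Genes for the secondary cell wall were more often higher than lower in bnagrp3 at 8 h. Of 111 tested genes on a secondary wall list, written after values were seen, 40 were higher and 3 lower (36.0% and 2.70%). Among all genes tested the shares were 11.4% and 12%. The median difference on the list was 0.33 (0.52 with a pseudocount of 0.1). In mock 7 of the list were higher and 5 lower, but the change from mock to 8 h was called for 0 of the 111. Without WT replicate 2 the number higher at 8 h was 24. The list of lignin and phenylpropanoid synthesis had 42 higher and 9 lower of 158 (median 0.24, or 0.14 with no filter; 14 and 15 in mock), and 25 higher without WT replicate 2. The xylem markers, which are the secondary wall cellulose synthases and the xylem cysteine proteases and so overlap the wall list, had 13 higher and 3 lower of 25 (median 0.47, or 0.16 with no filter on low values), and 8 higher without WT replicate 2. Their summed level was 268 to 329 TPM in WT and 402 to 500.4 TPM in bnagrp3, and 4 of the 36 matched genes were listed at 0 in all 6 libraries. Whether the amount of xylem in the samples had a part in the wall and lignin values was not tested.

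By summed entries the wall enzymes differed by about 1 log2 unit or less. CESA8, a subunit of the cellulose synthase of secondary walls, summed to 33.8, 25.4 and 27.4 TPM in WT and 42.8, 40.7 and 48.7 TPM in bnagrp3. The difference was 0.60 (SE 0.12, limma adjusted p 0.00201), while in mock it was 0.11 (adjusted p 0.535). For CESA8 the change from mock to 8 h was not called (0.49, adjusted p 0.124). Its partner CESA4 had means of 26.9 and 39.3 TPM (difference 0.55, adjusted p 0.0134, and 0.0743 without WT replicate 2, with the call also lost without bnagrp3 replicate 3). The third partner, CESA7, had means of 31.5 and 42.5 TPM (difference 0.43, adjusted p 0.0248, and 0.12 without WT replicate 2, with the call also lost without any of 3 other libraries). The laccases LAC11 and LAC12, which oxidise lignin precursors in the wall, kept their calls with every library left out. LAC11 summed to 33.7, 25.1 and 40.1 TPM in WT and 64.1, 56.5 and 76.1 TPM in bnagrp3 (difference 0.99, SE 0.18, adjusted p 0.00135), and LAC12 went from 13.3 to 26.8 TPM (difference 0.99, adjusted p 0.00407). The laccase IRX12 (38.8 and 64.0 TPM, adjusted p 0.0167) and LAC17 (difference 0.46, adjusted p 0.0187) lost their calls without WT replicate 2, at adjusted p values of 0.0888 and 0.0758, and without bnagrp3 replicate 1 or 3. BnaA01G0030400ZS, a xylem cysteine protease gene (XCP1), had 24.96, 15.53 and 26.61 TPM in WT and 56.7, 53.5 and 72.8 TPM in bnagrp3 (difference 1.43, adjusted p 0.00037), and was already higher in mock, at 37.9 against 22.9 TPM. CESA1, a subunit of the primary wall enzyme, was at 152.8 and 134 TPM (difference −0.18, adjusted p 0.0438), a call that was lost with 5 of the 6 libraries left out.

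The mannan synthase CSLA10, which makes the backbone of a hemicellulose, was higher in bnagrp3 by its summed entry. It had 7, 5.73 and 8.55 TPM in WT and 30.25, 34.97 and 33.27 TPM in bnagrp3 (difference 2.08, limma adjusted p 1.34e-05), whereas the mock means were 3.2 TPM in WT and 1.803 TPM in bnagrp3, without a call. CSLA1 rose from 4.95 to 24.6 TPM (difference 2.11). The other wall lists had calls in both directions. Among all genes tested 11.4% were higher and 12% lower. Pectin genes had 59 higher and 40 lower of 364 (16.21% and 10.99%). The wider cellulose list had 15 and 13 of 66 (22.73% and 19.7%). Of that list 42.42% was called, beside 23.4% of all genes tested. Expansins and xyloglucan endotransglucosylases had 19 and 15 of 142 (13.38% and 10.56%), with 8 to 12 higher without WT replicate 1 or 2 or bnagrp3 replicate 1 or 3. Among the latter, BnaA03G0438000ZS, an expansin-like B1 gene, had 34.5, 28.5 and 30.1 TPM in WT and was listed at 0 in bnagrp3, against mock means of 0.193 and 0 TPM.

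Genes of the ER body were more often higher than lower in bnagrp3. ER bodies are compartments of Brassicaceae cells that store beta-glucosidases, which meet their substrates and jacalin-type lectins when a cell is damaged. Of 53 tested genes on a list of this system, written after values were seen, 21 were higher and 1 lower (39.6% and 1.89%). Among all genes tested 11.4% were higher and 12% lower. The list had 4 higher and 2 lower in mock and 16 and 1 at 4 h. Its change from mock to 8 h was called upward for 4 of the 53 and downward for 0. The median at 8 h was 0.93. The median was 0.34 over all matched genes with no filter on low values. The number higher fell to 11 without WT replicate 1, to 12 without WT replicate 2 and to 13 without bnagrp3 replicate 2 or 3. The list summed to 372, 382.5 and 395 TPM in WT and to 970.1, 985 and 1151 TPM in bnagrp3. BGLU18, a beta-glucosidase known to release abscisic acid from its glucose ester, summed to 87.4, 107 and 89.0 TPM in WT and 394, 397 and 499.5 TPM in bnagrp3 (difference 2.17, SE 0.21, limma adjusted p 7.53e-06), with a mock mean of 189 TPM in bnagrp3 and a genotype difference of 0.90 in mock. Its 3 main copies rose together: BnaA06G0018600ZS (difference 2.39), BnaC06G0067000ZS (2.62) and BnaA05G0167400ZS (1.76). The changes of these copies from mock were called too, but held with only 1, 2 and 3 of 12 libraries left out in turn. The lectin JAL35 had 60.8, 76.5 and 68.4 TPM in WT and 237, 236 and 269 TPM in bnagrp3 (difference 1.84, adjusted p 0.00121). The PYK10-binding lectin PBP1 rose from 5.03 to 18.2 TPM (difference 1.70, adjusted p 0.00315) and JAL36 from 21.68 to 44.96 TPM. Both were called higher in mock too, PBP1 at 17.05 against 7.39 TPM and JAL36 at 39.8 against 21.11 TPM.

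Jasmonate genes were also more often higher. Of 98 tested, 23 were higher and 7 lower (23.5% and 7.14%), beside 11.4% and 12% of all genes tested. The median was 0.22, 0.10 with no filter and 0.35 with a pseudocount of 0.1. In mock 5 were higher and 8 lower, and the change from mock was called upward for 2 and downward for 1. The number higher at 8 h fell to 12 without WT replicate 2 and to 13 without WT replicate 1 or bnagrp3 replicate 1. Without bnagrp3 replicate 3 it fell to 14. The number lower at 8 h fell to 4 without WT replicate 2. LOX2, the chloroplast lipoxygenase that starts jasmonate synthesis, summed to means of 236 TPM in WT and 473 TPM in bnagrp3 (difference 1.03, limma adjusted p 0.034). That call was lost with 5 of the 6 libraries left out. The trypsin inhibitor KTI2 had 892 and 2085 TPM (difference 1.23, adjusted p 0.0179), a call lost without WT replicate 1 (0.0644), WT replicate 2 (0.056) or bnagrp3 replicate 3 (0.063). MYB34, an activator of indole glucosinolate synthesis, rose from 9.50 to 24.3 TPM (difference 1.32, adjusted p 0.000219). Myrosinases, which cleave glucosinolates, and the specifier proteins that act with them had 11 higher and 4 lower of 49 (22.45% and 8.16%). The median was 0.29, or 0.10 with no filter. In mock 8 of the 49 were higher and 5 lower, and the change from mock was called for 0. Model 43220, a myrosinase-binding protein gene, rose from 24.6 to 76.5 TPM, and model 2166, a myrosinase gene, from 1.02 to 6.26 TPM.

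Genes of pathogenesis-related proteins were more often lower than higher in bnagrp3. Of 138 tested, 29 were lower and 14 higher (21.01% and 10.14%), beside 12% and 11.4% of all genes tested. The median was −0.19, or 0 with no filter. In mock 19 were lower and 14 higher, where 12.4% of all genes tested were lower and 9.1% higher. The number lower at 8 h was 24 to 28 with each library left out. The number higher was 6 without bnagrp3 replicate 3, 8 without WT replicate 2 and 9 without bnagrp3 replicate 1 or 2. PR1 summed to 27.8, 26.95 and 27.6 TPM in WT and 4.59, 4.34 and 6.47 TPM in bnagrp3 (difference −2.23, SE 0.25, limma adjusted p 2.33e-05), and was lower in mock as well, at 21.2 against 43.4 TPM. PR5, a thaumatin-like protein, had 93.7, 68.3 and 100.2 TPM in WT and 28.0, 34.2 and 39.5 TPM in bnagrp3 (difference −1.34, adjusted p 0.00351), although in mock its level was 69.6 TPM in bnagrp3 and 50.4 TPM in WT. The beta-1,3-glucanase BG3 fell from 81.4 ± 9.80 to 25.8 ± 5.52 TPM (SD, n = 3; difference −1.63, adjusted p 3.87e-05). The endochitinase CHI had 239, 217 and 243 TPM in WT and 76.7, 87.7 and 76.5 TPM in bnagrp3 (difference −1.53, SE 0.18, adjusted p 5.06e-05), while in mock the genotypes were at 22.4 and 20.5 TPM. One copy carried most of this, BnaA05G0039200ZS, with 132, 123 and 123 TPM in WT and 17.5, 23.4 and 19.1 TPM in bnagrp3. NLR genes, which encode intracellular immune receptors, had 27 higher and 52 lower of 296 (9.12% and 17.6%), against 15 and 55 in mock. The change from mock was called upward for 2 and downward for 1 of the 296. Without WT replicate 2 the number of NLR genes higher at 8 h was 14.

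Most genes of the abscisic acid lists were not called. Among all genes tested 11.4% were higher and 12% lower. Abscisic acid synthesis and breakdown had 7 higher and 1 lower of 47 (14.9% and 2.13%, median 0.09), and 4 higher without WT replicate 2 or bnagrp3 replicate 1. This list includes the BGLU18 copies named above. It summed to 874.5, 889 and 856 TPM in WT and to 1136, 1125 and 1215 TPM in bnagrp3. BGLU18 alone rose from a mean of 94.5 to 430 TPM, so the rise of the sum does not describe the other members. The genotype difference of 5 of the 47 changed upward from mock, beside 0.782% of all genes tested. Among the 5 are the BGLU18 copies BnaA05G0167400ZS, BnaA06G0018600ZS and BnaC06G0067000ZS. Their calls held with only 3, 1 and 2 of 12 libraries left out in turn, so this count mostly describes BGLU18. Signalling had 14 higher and 3 lower of 108 (median 0.11), and 8 higher without WT replicate 2. NCED3, the enzyme of the limiting step of synthesis under drought, summed to 164 TPM in WT and 167 TPM in bnagrp3 (difference 0.03, 95% interval −0.22 to 0.28). Late-embryogenesis proteins and dehydrins had 12 higher and 4 lower of 61 (19.7% and 6.56%, median −0.04), with 7 higher without WT replicate 2. The dehydrin gene BnaC02G0556300ZS (RAB18) had 1600, 1781 and 1673 TPM in WT and 332, 477 and 706 TPM in bnagrp3 (difference −1.80, limma adjusted p 0.000312), yet all RAB18 genes together were at 17590 and 13850 TPM, with no call (difference −0.35, adjusted p 0.102). In the opposite sense BnaC09G0580800ZS, matched to LEA46, rose from 344 to 932 TPM. The KIN, COR15 and LTI proteins of cold and drought had 2 higher and 8 lower of 53 (3.77% and 15.1%), against 7 and 7 in mock. The change from mock was called downward for 1 of the 53 and upward for 0. The aldehyde dehydrogenase ALDH7B4, which detoxifies aldehydes under salt and drought, fell from 548 ± 78.4 to 169.5 ± 14.4 TPM (SD, n = 3; difference −1.68, adjusted p 0.000402).

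Sodium transporters had near equal means in the genotypes. The vacuolar exchanger NHX1 summed to 186 and 188 TPM (difference 0.02, 95% interval −0.13 to 0.17), and HKT1, which withdraws sodium from the xylem, to 26.4 and 26.6 TPM (difference 0.01, −0.16 to 0.19). SOS1 (NHX7), the plasma membrane exchanger, was at 48.5 and 55.7 TPM (difference 0.20, limma adjusted p 0.0469), a call lost with each library left out. The list of sodium exchange with CBL calcium sensors and CIPK kinases had 17 higher and 18 lower of 118 (14.4% and 15.25%). This was near the 11.4% and 12% of all genes tested. The list had 10 or 11 higher without WT replicate 2 or bnagrp3 replicate 1 or 2. Its members could move far in either direction, such as BnaC02G0000900ZS (CIPK14), which fell from 40.55 to 0.17 TPM, and BnaA03G0146400ZS (CIPK11), which rose from 2.04 to 10.2 TPM.

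Aquaporin genes were more often lower than higher in bnagrp3 in mock, and more often higher at 8 h. Of 85 tested, 4 were higher and 27 lower in mock, where 9.1% of all genes tested were higher and 12.4% lower. At 8 h 22 were higher and 11 lower (25.9% and 12.9%), beside 11.4% and 12% of all genes tested. The median at 8 h was 0.18, or 0.07 with no filter. The number higher at 8 h was 15 without WT replicate 2 or bnagrp3 replicate 1. It was 17 without WT replicate 1 or bnagrp3 replicate 3. The number lower was 7 without bnagrp3 replicate 1. The change of the genotype difference from mock to 8 h was called upward for 12 of the 85 and downward for 1. Among all genes tested these shares were 0.782% and 0.599%. The plasma membrane channels PIP2-1 and PIP2-2 summed to 273 and 680 TPM in WT and 123 and 332 TPM in bnagrp3 in mock. At 8 h PIP2-1 was at 170.4 and 172 TPM and PIP2-2 at 216 and 237 TPM (difference 0.13, 95% interval −0.19 to 0.45). The vacuolar channel TIP2-1 was lower in bnagrp3 in mock, at 555 against 706 TPM, and higher at 8 h, at 238 against 178 TPM (difference 0.41, limma adjusted p 0.00417).

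Histone genes and markers of dividing cells were more often lower than higher in bnagrp3. Core histones had 29 lower and 5 higher of 96 (30.2% and 5.21%, median −0.31), beside 12% and 11.4% of all genes tested. In mock 10 were lower and 6 higher, and the change from mock was called downward for 5 and upward for 0. With each library left out 20 to 31 were lower at 8 h (3 higher without WT replicate 1). The core histone list summed to 6221 to 6437 TPM in WT and 5022 to 5289 TPM in bnagrp3. BnaA04G0185900ZS, a histone H4 gene, had 271, 344 and 183 TPM in WT and 63.2, 34.9 and 55.5 TPM in bnagrp3 (difference −2.35, limma adjusted p 0.000102), and the histone H2A gene BnaA10G0108500ZS (RAT5) fell from 29.2 to 4.16 TPM. The markers of dividing cells include histone H4 and cyclin B genes and so overlap the histone and cyclin lists. They are therefore not a separate result. These markers had 15 lower and 1 higher of 38 (39.5% and 2.63%). Their median was −0.48, or −0.24 under a filter of 5 TPM. In mock 9 were lower and 0 higher, but the change from mock was called for 0 of the 38. With each library left out 12 to 14 of these markers were lower at 8 h. Their summed level was 1241 to 1524 TPM in WT and 857 to 917 TPM in bnagrp3, and 4 of the 43 matched genes were listed at 0 in all 6 libraries. The part of dividing cells in the histone values was not tested. Cyclins had 8 higher and 12 lower of 138 (5.80% and 8.70%).

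**Figure D3:**
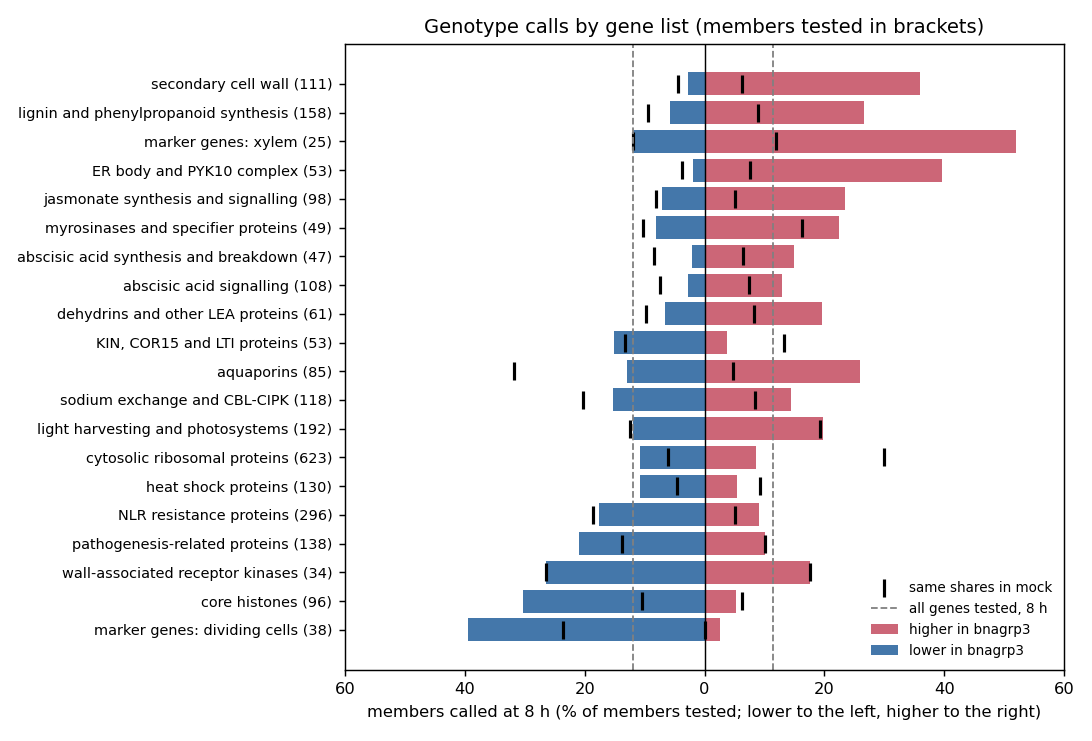
Share of tested genes called higher (right) or lower (left) in bnagrp3 at 8 h for 20 gene lists, in percent, with black ticks at the share called in mock and dashed lines at the share among all genes tested at 8 h (11.4% higher and 12% lower). Secondary wall, xylem and ER body lists lay far to the right and dividing cells and core histones to the left.

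Other lists are given by their counts, beside 11.4% higher and 12% lower among all genes. Light-harvesting and photosystem genes had 38 higher and 23 lower of 192, beside 37 and 24 in mock, and 25 higher without bnagrp3 replicate 2. Cytosolic ribosomal proteins had 54 higher and 67 lower of 623 at 8 h (median −0.01), whereas in mock 187 were higher and 38 lower (median 0.38). The change from mock was called upward for 1 and downward for 2 of the 623. Without bnagrp3 replicate 3 the number of ribosomal protein genes higher at 8 h was 35. NAC factors had 21 higher and 14 lower of 187, with 12 higher without WT replicate 2. Heat shock proteins had 7 higher and 14 lower of 130, with 9 lower without WT replicate 2 or bnagrp3 replicate 1. WRKY factors had 10 and 9 of 149, antioxidant enzymes 10 and 9 of 86, and lipid-transfer proteins 14 and 21 of 113. Sulfate uptake and assimilation had 10 higher and 16 lower of 97, with 9 lower without bnagrp3 replicate 1. Of this list, BnaA03G0586600ZS, which encodes the sulfate-reducing enzyme APR2, had 44.3, 63.7 and 29.55 TPM in WT and 2.20, 2.11 and 1.83 TPM in bnagrp3 (difference −3.88, SE 0.22, limma adjusted p 9.07e-09). Markers of other cell types gave 1 higher of 38 phloem genes and 11 higher and 9 lower of 41 mesophyll genes (7 higher without bnagrp3 replicate 1). Pollen and anther markers had 5 higher and 0 lower of 14, and 3 or 4 higher with each library left out. Seed markers had 2 higher and 4 lower of 11, guard cell markers 1 and 1 of 9, and epidermis markers 0 and 0 of 4. No root marker gene reached the filter, with summed root levels of at most 0.42 TPM in any of the 6 libraries. The mesophyll markers, which encode abundant photosynthesis proteins, summed to 43980 to 48710 TPM in WT and 50590 to 56380 TPM in bnagrp3, without overlap.

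A few single entries differed clearly. The heat stress factor HSFA6b summed to 21.4, 19.2 and 14.7 TPM in WT and 54.8, 44.6 and 47.7 TPM in bnagrp3 (difference 1.38, limma adjusted p 0.000162), against 3.27 and 3.06 TPM in mock. The early light-induced protein ELIP1, which binds chlorophyll under light stress, had 72.2, 85.3 and 47.3 TPM in WT and 8.83, 10.6 and 8.36 TPM in bnagrp3 (difference −2.72, adjusted p 7.31e-05), against 8.66 and 6.94 TPM in mock. LHY, a morning factor of the circadian clock, was lower at both times, from 44.5 to 8.32 TPM in mock and from 9.78 to 1.87 TPM at 8 h (difference −1.89). The clock and CONSTANS-like list, written after values were seen, had 21 higher and 35 lower of 164 at 8 h (12.8% and 21.3%). Among all genes tested the shares were 11.4% and 12%. In mock the list had 24 higher and 58 lower, and the change from mock was called upward for 9 and downward for 0. It had 13 higher at 8 h without WT replicate 2 or bnagrp3 replicate 1.

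The genotypes differed in mock and at 4 h to a like extent. These comparisons share no library with the one at 8 h. All use the same estimate of each gene's scatter, however, so overlaps of their calls are not between independent tests. In mock 12465 genes were called (21.5%), 5272 higher (9.1%) and 7193 lower (12.4%), and at 4 h 13671 (23.6%), 5729 higher (9.89%) and 7942 lower (13.7%). Of the 6626 genes higher at 8 h, 2924 (44.1%) were higher in mock and 2118 (32.0%) in mock and at 4 h. Of the 6946 genes lower at 8 h, 4438 (63.9%) were lower in mock and 3790 (54.6%) in mock and at 4 h. The opposite call in mock was found for 58 and 24. Another 3644 higher and 2484 lower genes had no call in mock, but the change from mock to 8 h was itself called for only 129 and 138 of them.

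The genotype difference itself changed from mock to 8 h for 800 genes, 1.38% of those tested, upward for 453 (0.782%) and downward for 347 (0.599%). Of the 800, 264 were called in mock and not at 8 h. The count was 458 without bnagrp3 mock replicate 2, 472, 512 and 478 without bnagrp3 8 h replicates 1, 2 and 3, and 519 without WT 8 h replicate 2. Among genes of at least 10 TPM, the largest upward change was that of the scaffold GRP3 gene (3.38, limma adjusted p 0.00476). BnaA07G0112700ZS, a CSLA10 copy, had 4.54, 2.56 and 4.25 TPM in WT and 20.2, 22.6 and 21.5 TPM in bnagrp3 at 8 h, against mock means of 1.86 and 0.503 TPM (change 3.19, adjusted p 5.74e-05). BnaA07G0283400ZS, which encodes the RNA-binding protein LSM8, had 0.65 and 20.1 TPM at 8 h and 13.9 and 26.2 TPM in mock (change 2.93, adjusted p 0.0132). Downward changes were led by BnaC08G0427500ZS, a ribosomal protein L39 gene, with 50.9, 64.9 and 25.9 TPM in WT and 0 in bnagrp3 at 8 h, against mock means of 34.7 and 131 TPM (change −8.74, adjusted p 0.0377), a call lost with 9 of 12 libraries left out. Summed over the 10 genes of the L39-1 entry, the means at 8 h were 381 TPM in WT and 390 TPM in bnagrp3 (difference 0.02). The change of that sum from mock was not called (−0.61, limma adjusted p 0.18). Next came BnaC08G0459000ZS, which encodes an H/ACA ribonucleoprotein subunit of the kind that guides RNA modification (−7.66, adjusted p 0.014), with 33.97, 40.9 and 17.66 TPM in WT and 0 in bnagrp3 at 8 h. The LEA14 gene followed (−6.60, adjusted p 2.98e-08), then the lipid-transfer gene (−5.53, adjusted p 1.4e-05) and the expansin-like gene (−4.76, adjusted p 1.93e-07). Between 4 h and 8 h the genotype difference changed for 4 genes (0.00691%), and 4426 genes had an unadjusted p under 0.05.

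**Figure D4:**
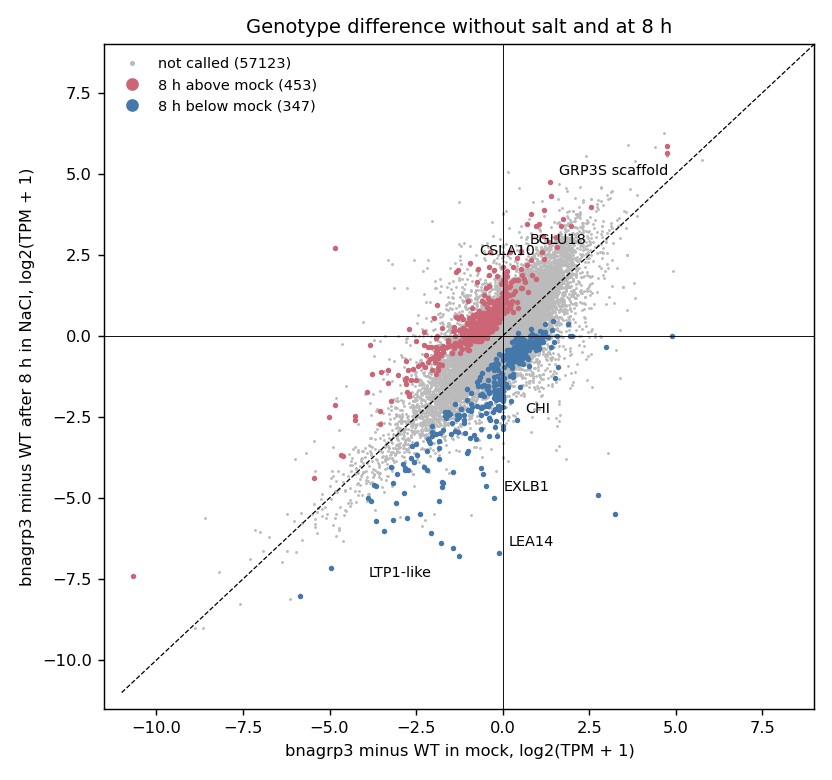
Difference between bnagrp3 and WT in log2(TPM + 1) in mock (horizontal axis) and at 8 h of NaCl (vertical axis), 1 point per tested gene, with the 453 genes whose difference changed upward and the 347 whose difference changed downward in colour. The dashed diagonal marks equal differences, and the LEA14 and expansin-like genes lie near 0 in mock and far below 0 at 8 h.

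In places, genes called in 1 direction lay side by side along a chromosome. With tested genes ordered by their identifiers and read in windows of 30, a mean of 3.12 genes per window was higher and 3.40 lower, and 25 regions held windows with at least 15 genes called one way, 11 of them higher and 14 lower. These regions, found from the calls and given as a description, held 1380 tested genes, 2.38% of the total, and 917 called genes, 6.76% of the calls. Outside them 12655 of 56543 genes (22.4%) were called. The LEA14 gene lies in such a region.

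In 6 chromosome stretches, chosen after these regions were seen, the A and C copies differed in opposite directions and their sums hardly differed. Among 94 homeolog pairs at the start of A03 and C03, the median difference was 0.59 for the A copy and −1.51 for the C copy, and −0.04 for the sum. For 154 pairs at the start of A09 and C09 it was 1.40, −0.55 and −0.05. For 73 pairs at the end of A04 and C04 it was −0.69, 1.40 and 0.08. The same opposition held at the start of A02 and C02 (76 pairs, −0.40 and 1.09), the start of A05 and C04 (38 pairs, −0.39 and 0.99) and the end of A10 and C09 (30 pairs, −1.69 and 0.49). In mock the medians had the same signs in all 6 stretches, for example 0.44 and −1.30 for A03 and C03.

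The share of each pair that came from the A copy was steady among bnagrp3 libraries and uneven among WT libraries. At the start of A09 and C09 the median A share was 11.97%, 0% and 24% in WT replicates 1, 2 and 3 and 41.4%, 43.4% and 43.1% in bnagrp3. At the end of A04 and C04 it was 84.1%, 98.7% and 71.8% in WT and 42.6% to 45.3% in bnagrp3. At the start of A03 and C03 it was 56.5%, 47.3% and 60.9% in WT and 93.2%, 93.8% and 92.3% in bnagrp3. In all 6 stretches at 8 h WT replicate 3 was nearest to bnagrp3 and WT replicate 2 farthest, the order also seen in the correlations between libraries. At 4 h WT replicate 2 was the nearest in all 6. What set these shares was not tested.

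**Figure D5:**
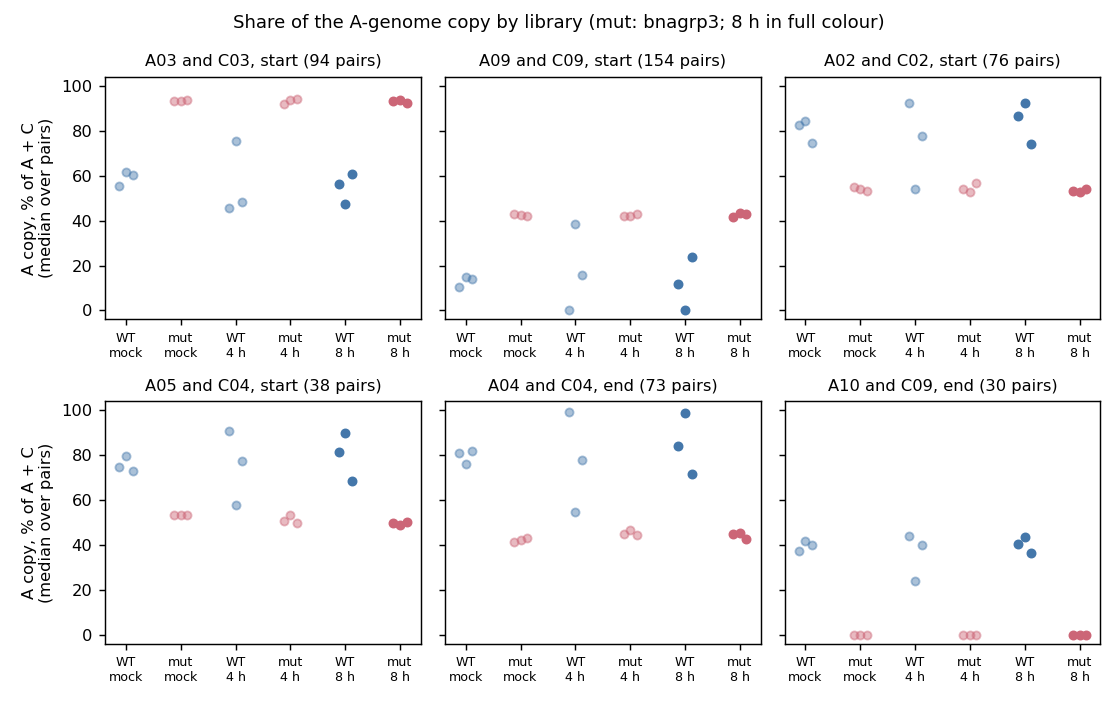
Median share of TPM from the A copy, in percent, over homeolog pairs in 6 chromosome stretches, 1 point per library. All 18 libraries are shown, WT and bnagrp3 in mock, at 4 h and at 8 h of NaCl, with 8 h in full colour. At 8 h the bnagrp3 points lie together in each stretch, and the WT points spread out with replicate 2 farthest from bnagrp3. At 4 h WT replicate 2 is the nearest.

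Some transcripts were found in 1 genotype. Of 57923 genes tested, 214 were listed at 0 in all 3 bnagrp3 libraries at 8 h but reached 5 TPM in each WT library. Another 37 had the reverse pattern. The 37 became 83 without WT replicate 3 and 57 without bnagrp3 replicate 1. Of the 214, 154 were at 0 in the other 6 bnagrp3 libraries of the series too, and 10 reached 1 TPM in one of them. Of the 37, 8 were at 0 in the other 6 WT libraries and 22 reached 1 TPM in one of them. Among the 214, 84 were gene models outside the reference annotation and 31 lay in the regions described above. Of the 37, 22 were such models and 1 lay in those regions. Among all 57923 genes tested 6436 were such models, and the regions held 2.38%.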

How the data were processed

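The authors deposited TPM per gene for 18 libraries, as TPM per the file headers, with product names from protein databases. Per the submitters' processing notes, fastp, HISAT2 and featureCounts were used, and no versions are named. Genome build, annotation and strand setting: not given in the sources used here. The tested genes reached 1 TPM in at least 3 libraries. A model with 1 mean for each of 6 groups was fitted to log2(TPM + 1) of all 18 libraries with limma 3.58.1 in R 4.3.3 (moderated tests with an intensity trend, two-sided p-values adjusted by Benjamini-Hochberg over 57923 genes), and contrasts gave the genotype difference at 8 h, at 4 h and in mock, and the change of the difference from mock or 4 h to 8 h. Intervals are 95% on 12 residual degrees of freedom. The same fit was run on TPM summed by Swiss-Prot entry. Python 3.11.15 with pandas 2.3.3, numpy 2.4.6 and matplotlib 3.10.9 made summaries and figures, and the fit was tested on simulated data. Replicate numbers were not used to pair libraries.

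The comparison and the gene lists were chosen with earlier results of these data known. The 56 lists match product names. Another 4 lists (secondary cell wall, ER body, circadian clock, cutin and suberin), the sums, the regions and the homeolog stretches were added after values were seen. Genes were named by rule: all GRP3 genes, the 12 largest rises and falls of at least 10 TPM with libraries not overlapping, up to 3 of each direction per list at 5 TPM, the 6 largest changes from mock in each direction, and the 5 highest genes at 0 in 1 genotype. Summed entries and single copies beyond that rule were chosen after their values were seen. Alternatives were each library left out, library weights, a replicate block, quantile normalisation, rescaling by median of ratios, a threshold of 1 log2 unit, a fit restricted to the compared groups, another pseudocount (0.1), and the low-value filter dropped or set at 5 TPM.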

Additional observations from a re-analysis of the deposited data

Results flagged for a closer look

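The genotype difference at 8 h differed from that in mock, by limma's test of the difference itself, for 800 genes, and from that at 4 h for 4 genes. Each value below is such a change in log2 units, and the cause of none was tested. A change can come from the level of either genotype. Where bnagrp3 had almost no transcript in mock and at 8 h, the value reflects a move of the WT level.

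Genes that became lower in bnagrp3 relative to WT between mock and 8 h included the ribosomal protein L39 gene BnaC08G0427500ZS (−8.74), a gene matched to the protein At2g20490, BnaC08G0459000ZS (−7.66), the LEA14 gene BnaC03G0000500ZS (−6.60), the lipid-transfer gene BnaA04G0243400ZS (−5.53), the expansin-like gene BnaA03G0438000ZS (−4.76) and the carboxylesterase gene BnaA06G0034600ZS (−4.63). Smaller changes of this kind were found in the chitinase gene BnaA05G0039200ZS (−3.01), the WAK1 model 48612 (−2.88), the histone H2A gene BnaA10G0108500ZS (−2.23), the nuclease gene BnaC02G0286800ZS (−2.17), the kinase gene BnaC02G0000900ZS (CIPK14, −2.07), the dehydrin gene BnaC02G0556300ZS (−1.73) and model 64484, matched to the immune receptor CHS3 (−1.14). The calls of the L39 gene and the dehydrin gene were lost with 9 and 11 of 12 libraries left out in turn, and that of model 64484 with 3. In bnagrp3 the LEA14, lipid-transfer and expansin-like genes had no transcript listed in mock or at 8 h, so their values reflect the rise in WT.

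Genes that became higher in bnagrp3 relative to WT were the scaffold GRP3 gene Bnascaffold0025G0035900ZS (3.38), the signal peptide gene BnaC06G0365500ZS (CLE26, 3.32), the ECS1 model 53324 (3.25), the mannan synthase gene BnaA07G0112700ZS (3.19), the ubiquitin protease gene Bnascaffold0025G0022300ZS (UBP12, 2.96), the LSM8 gene BnaA07G0283400ZS (2.93), the aquaporin gene BnaC03G0208300ZS (PIP2-2, 2.83) and the MCD1 gene BnaA10G0109000ZS (0.89). The 3 BGLU18 copies changed by 2.11 (BnaC06G0067000ZS), 1.98 (BnaA06G0018600ZS) and 0.79 (BnaA05G0167400ZS), and each lost its call with at least 9 of 12 libraries left out. The aquaporin call was lost with 11 of 12 and the CLE26 call with 3 of 12, and that of the MCD1 gene without bnagrp3 8 h replicate 1. The ECS1 model had no transcript listed in bnagrp3 at 8 h, and its value reflects the fall of the WT level from mock.

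The 4 genes that changed between 4 h and 8 h were BnaC02G0480600ZS (4.75), the actin regulator gene BnaC08G0442600ZS (BRK1, 4.43, and 3.35 from mock), model 5412 (1.23, but −0.74 from mock, a call lost with 10 of 12 libraries left out) and BnaA10G0206800ZS (0.79).

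Among summed Swiss-Prot entries, the change from mock to 8 h was −2.89 for WAK1, −2.39 for the protease inhibitor CYS7, −2.39 for ELIP1, −2.21 for BBD1, −2.0 for the kinesin KIN14D, −1.81 for PR5, −1.43 for CHI, −1.36 for BG3 and −1.01 for RAB18. It was 2.67 for CSLA10, 1.91 for CSLA1, 1.49 for HSFA6b, 1.41 for COL2, 1.30 for MYB34, 1.27 for BGLU18, 1.21 for the homeobox factor ATHB-12, 1.17 for PIP2-1 and for PIP2-2, 1.15 for the replication protein RPA2B, 0.95 for COL1, 0.89 for the catalase CAT2 and 0.75 for TIP2-1. Leaving out 12 libraries in turn, the BGLU18 and CSLA1 sums kept the call with 1, RPA2B with 2, COL1 with 4, PR5 with 8 and MYB34 with 10, and the other sums listed with all 12. In bnagrp3 the CYS7 sum was 0 TPM in mock and at 8 h, and the BBD1 sum had means of 0 and 0.02 TPM. Their changes therefore reflect the rise in WT. For ATHB-12, PIP2-1, PIP2-2 and CAT2 the genotypes differed in mock and had near equal means at 8 h, with 234 and 244 TPM for ATHB-12 and 392 and 372 TPM for CAT2.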

How the results depend on the processing

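Of the 314 genes with a call or GRP3 name that were followed through the alternatives, 0 were called in the other direction. At 8 h 5589 genes (2637 higher, 2952 lower) also differed by at least 1 log2 unit, a filter of 5 TPM left 4584 lower, and leaving out each of the 6 libraries at 8 h gave 9503 to 13653 calls (4160 to 6670 higher, 5343 to 6983 lower), the fewest without WT replicate 2. Without a library of another group the calls numbered 13026 to 14982. Library weights gave 17058 calls, a pseudocount of 0.1 gave 12431 and a fit of only the groups compared 11295. The 800 changes from mock were 1888 with library weights (1042 higher, 846 lower) and 465 above 1 log2 unit (236 and 229). A pseudocount of 0.1 left 216 lower, and leaving out libraries gave 458 to 801 (262 to 439 higher, 194 to 385 lower). The 4 changes from 4 h were 26 with no filter (16 and 10), 2 with a 5 TPM filter or median-of-ratios rescaling (2 higher), 1 with quantile normalisation, 128 with library weights (97 and 31), and 2 lower with only the groups compared. They were 1 to 26 (1 to 19 higher, 0 to 7 lower) with libraries left out. Summed entries called were 1803 to 2675 with libraries left out. With a minimum of 1 TPM, 137 genes were at 0 in WT and 673 at 0 in bnagrp3, and with libraries left out 49 to 83 and 238 to 280. The cause of these moves was not tested. With no filter the medians of the ER body, xylem, jasmonate, myrosinase, lignin and aquaporin lists fell by over 1.5 times, to 0.34, 0.16, 0.10, 0.10, 0.14 and 0.07, and a pseudocount of 0.1 raised that of the secondary wall list to 0.52. The medians of 14 of 36 lists reached 0 or the other sign under an alternative, among them wall-associated kinases (0.15 under a 5 TPM filter), late-embryogenesis proteins and dehydrins (0), and pathogenesis-related proteins (0). Of these 314, 59 lost the call without WT replicate 2, 38 without bnagrp3 replicate 1 or 3, 31 without bnagrp3 replicate 2, 26 without WT replicate 1 and 11 without WT replicate 3. With the replicate block 13157 genes were called at 8 h (6374 higher, 6783 lower), 655 changed from mock (378 and 277) and 2 from 4 h. Libraries of the same number at 8 h deviated together at correlations of −0.0014 to 0.0428. The labels do not say what such libraries share, and these correlations cannot settle it. TPM keeps no read depth, so what depth limits cannot be stated.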
